A study of Mus musculus with 16 samples.

Results

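Type I interferon stimulated genes were followed in 16 MC38 tumors, of which 8 came from IgG control mice and 8 from mice treated with aPD-1. Of the aPD-1 treated tumors, 6 were labelled non-responders and 2 responders. The 32 genes were taken from a list of symbols, and all 32 were found among the 53465 genes of the count table and passed the filter on low counts, as did 18251 genes in all. MC38 is a mouse colorectal carcinoma line, and every tumor, controls included, grew from MC38 cells injected under the skin of the right flank of a female C57BL/6 mouse aged 6 to 8 weeks. Mice entered at a tumor volume of 150 to 250 mm3 on day 16, received 200 µg of IgG or aPD-1 on days 16 and 20, and tumors were harvested on day 21. The responder label was set by the study from CD8 T cell staining of these same tumors, so T cell genes cannot serve as an independent check of it. RNA came from 100 µm sections of whole frozen tissue and therefore mixes carcinoma, immune and stromal cells. In such bulk samples fewer cells of a type and less RNA per cell cannot be told apart.

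Type I interferons are a family of secreted antiviral proteins, made after cells sense foreign or misplaced nucleic acid. They bind a receptor built from Ifnar1 and Ifnar2, and the kinases Jak1 and Tyk2 then activate transcription factors, among them Stat2. Stat2 and Irf9 are parts of the complex ISGF3, which binds a DNA element called the interferon stimulated response element (ISRE) in the promoters of the stimulated genes. Interferon gamma uses another receptor and acts through another DNA element, called GAS, and the target genes of both pathways overlap in part.

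Promoter sequence was read first, because the ISRE is the feature by which these genes are classically linked. RefSeq promoters (GRCm38.p6, 250 bases before to 50 bases after the start) were matched by symbol for 22 of the 32 genes. The ISRE core GAAANNGAAA, searched on both strands, was found in 13 of the 22, or 59.1%, against 3.99% of 27025 genes with a promoter in the table. The GAS motif TTCNNNGAA, which reads the same on both strands, was found in 3 of the 22 (13.6%) against 9.55% of all genes. No promoter entry was matched for Oas2, Dhx58, Zbp1, Usp18, Mx1, Mx2, Parp9, Parp14, Rtp4 and Ifi27l2a. In 10 genes the match nearest the start lay wholly before it, while in Ddx58, Ifih1 and Trim30a it began after the start. The 60-base windows of the 10 were placed to end at or before the start. In these 10 the nearest matches stood 14 to 222 bases before the start, with a median of 102.5, and 8 of them within 150 bases. A match describes the letters only and does not show that a factor binds there.

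No match to the ISRE core was found in the promoters of Ifit2, Oasl1, Oasl2, Irf7, Irf9, Herc6, Cmpk2, Ifi44 and Xaf1. The following 60-base windows are printed on the strand of the gene with every match to the core in capitals. Windows are shown for Ifit1, Ifit3, Ifit3b, Isg15, Oas1a, Bst2 and Rsad2, which cover only some of the roles in the list. Those of Oas3, Stat2 and Phf11b are not shown. Where the core lies on the other strand, its reverse complement appears. Isg15 holds 3 matches in its window, Ifit1, Oas1a and Bst2 hold 2 each, and matches that overlap form 1 run of capitals.
Ifit1, chr19:34640779-34640838, plus strand: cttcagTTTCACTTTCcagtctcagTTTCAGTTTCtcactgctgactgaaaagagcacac
Ifit3, chr19:34583382-34583441, plus strand: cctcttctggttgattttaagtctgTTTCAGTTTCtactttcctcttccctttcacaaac
Ifit3b, chr19:34607778-34607837, plus strand: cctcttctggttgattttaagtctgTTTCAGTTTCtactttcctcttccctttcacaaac
Isg15, chr4:156200850-156200909, minus strand: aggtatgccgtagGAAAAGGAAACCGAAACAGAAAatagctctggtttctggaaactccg
Oas1a, chr5:120907526-120907585, minus strand: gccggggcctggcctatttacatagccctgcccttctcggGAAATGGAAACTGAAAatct
Bst2, chr8:71537562-71537621, minus strand: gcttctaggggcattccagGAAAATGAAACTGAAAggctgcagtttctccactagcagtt
Rsad2, chr12:26456538-26456597, minus strand: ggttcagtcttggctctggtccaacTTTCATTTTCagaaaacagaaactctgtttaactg
The windows of Ifit3 and Ifit3b were identical over all 60 bases, although these are separate genes at chr19:34583531-34588731 and chr19:34607970-34613401. Their neighbours Ifit2 and Ifit1 lie on the same strand of the same chromosome. Of the other members, Oasl2, Oasl1, Oas2, Oas3 and Oas1a lie on chromosome 5, Rtp4, Parp14, Parp9, Mx1 and Mx2 on chromosome 16, and Rsad2, Cmpk2 and Ifi27l2a on chromosome 12.

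Total counts per tumor ran from 26603449 to 39948866. A set of 3 tumors stood apart by the share of counts from mitochondrial genes, which was 7.60% in IgG tumor 1, 6.00% in non-responder 9 and 5.73% in non-responder 14, against 2.52% to 3.25% in the other 13. Both responders differed from all other tumors in immune content. The summed level of 8 T cell markers was 298.0 CPM, the count scaled to the size of the library, in responder 15 and 270.2 in responder 16. It was 15.4 to 40.3 in non-responders and 9.89 to 33.6 in IgG tumors. The corresponding B cell sums were 1245 CPM in responder 15 and 310.4 in responder 16, against at most 7.97 in any other tumor. For the labelled colorectal carcinoma, the sum of 8 colon epithelium markers was 5.55 to 10.7 CPM in IgG tumors and 4.94 to 13.2 in non-responders. It was 118.4 in responder 15 and 51.8 in responder 16. Of the 6 markers that were tested, 5 were higher in responders than in non-responders. Of these markers Cdx2 had 1 count in 1 tumor and 0 in the other 15, Cdh1 had 103 to 331 counts in every tumor, and Krt8, Krt18 and Krt19 had 402 to 1128 counts in the responders and at most 66 in any other tumor.

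Transcripts of the stimulated genes were present in every tumor, while those of the type I and III interferons themselves were close to 0. The lowest level of any member in any tumor was 5.85 CPM, for Mx2 in IgG tumor 2. Of 20 type I and III interferon genes, 18 did not pass the filter. The other two were Ifnb1, the gene of interferon beta, with 0 to 14 counts per tumor, and Ifnz, with 1 to 17 counts per tumor. Ifna1, Ifna2, Ifna5, Ifnl2 and Ifnl3 had 0 counts in all 16 tumors, which allows up to 3 counts in each. The samples were poly(A) RNA taken on a single day, so an earlier or brief expression of these genes was not measured.

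Between genes, levels were compared per kb of summed exon length. Bst2, which tethers budding virus particles to the cell surface, was highest at 358 CPM per kb, followed by Isg15, a ubiquitin-like modifier, at 169. Next came Ifi27l2a at 115 CPM per kb and Ifit3 at 86.9. The lowest were Oas3 at 4.32 and Mx2 at 3.68 CPM per kb. For Ifit3, Ifit3b, Oas1a, Trim30a, Parp9 and Herc6, the estimated counts were not whole numbers in 15 or 16 of the tumors, so reads were divided between these and other genes and their levels are less certain.

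The clearest pattern among the members was a shared rise and fall from tumor to tumor over the 16 tumors, with differences between groups included. IgG tumor 2 held the lowest level of all 16 tumors for 20 of the 32 genes and was among the 5 lowest for 31. IgG tumors 7, 5 and 6 were among the 5 lowest for 28, 26 and 17 genes, and non-responder 10 for 18. At the other end, non-responder 13, responder 16 and non-responder 12 were among the 5 highest for 25, 24 and 21 genes. The mean log2 CPM over the 32 genes ran from 5.45 in IgG tumor 2 to 6.48 in responder 16, with responder 15 at 6.13. By group this mean was 5.99 ± 0.36 (SD, n = 8) in IgG tumors, 6.26 ± 0.24 (SD, n = 6) in non-responders and 6.30 ± 0.25 (SD, n = 2) in responders, and the 3 groups overlapped.

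**Figure D1:**
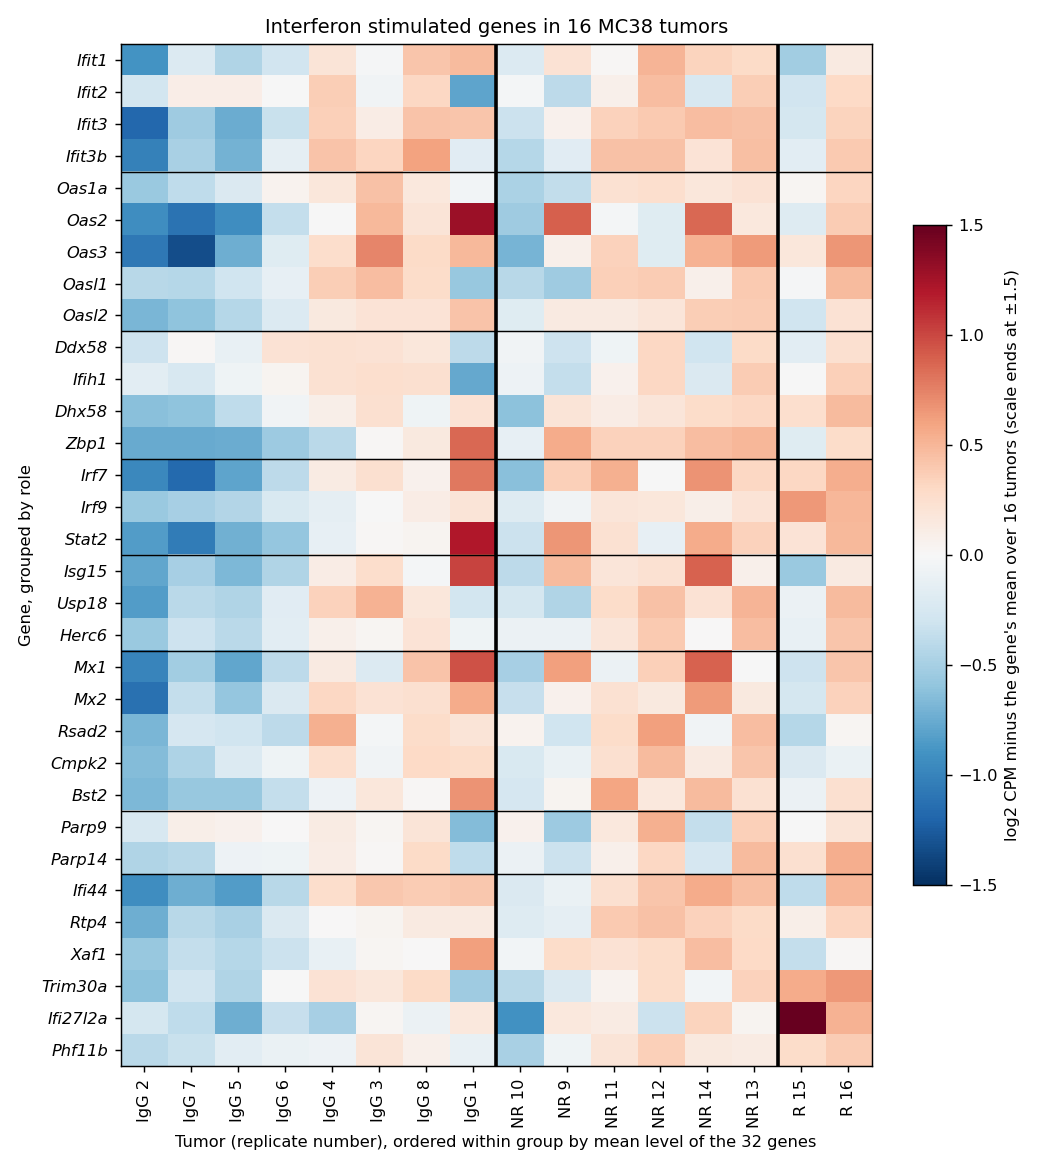
Level of each of the 32 genes (rows, grouped by role) in each of 16 tumors (columns; IgG control, NR for aPD-1 non-responder, R for aPD-1 responder), as log2 CPM minus the gene's own mean, with red above and blue below that mean. IgG tumors 2, 7, 5 and 6 and non-responder 10 are blue in most rows, and Ifi27l2a in responder 15 lies beyond the end of the colour scale.

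Across the 16 tumors the 496 pairs of members had a median correlation of log2 CPM of 0.65, with 455 pairs above 0. Over all pairs of the 12032 genes tested whose mean count was 100 or more, the median was 0.00. Over the 13 tumors without a high mitochondrial share, the median between members was 0.80 and 489 pairs were above 0. These correlations are descriptions over tumors that share libraries and scaling, and differences between groups were not removed from them. The lowest medians with the other members over 16 tumors were those of Parp9 (0.13), Ifi27l2a (0.20), Ifit2 (0.21) and Ifih1 (0.28). Over 13 tumors Ifi27l2a was again at 0.20, and the next lowest was Ifit2 at 0.65. By the same measure Oasl2 and Ifi44 were most like the rest over 16 tumors, with medians of 0.81 and 0.81.

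The median spread between tumors of 1 group was wider for the members than for the 12032 genes of mean count 100 or more, which were not matched to them for depth. The median SD of log2 CPM was 0.40 for members in IgG tumors against 0.26 for those genes, and 0.32 against 0.23 in non-responders. From the lowest to the highest of the 16 tumors the members differed by a median of 2.43-fold, from 1.62-fold for Ddx58 to 8.56-fold for Ifi27l2a, against 2.01-fold for the 12032 genes. The widest spreads within the IgG tumors were those of Oas2 (SD 0.82), Oas3 (SD 0.77) and Stat2 (SD 0.71).

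The 3 tumors of high mitochondrial share departed from this common order. Mx1, Oas2, Isg15 and Stat2 were higher in all 3 than in any of the other 13 tumors, and Parp9 was lower in all 3. For Oas2 the 3 tumors had 134.8 to 179.6 CPM and the other 13 had 34.5 to 104.0. For Parp9 the 3 had 99.9 to 122.5 CPM and the other 13 had 132.5 to 226.7. Such a separation was also seen upward in 12.4% and downward in 12.7% of all genes tested, so 4 and 1 of 32 members are not many.

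The comparison of responders with non-responders asked whether these genes go with the response label among treated tumors. Of the 32 members, 1 was higher (Ifi27l2a) and 0 were lower at an adjusted p below 0.05 by the quasi-likelihood test of edgeR, adjusted after Benjamini and Hochberg over 18251 genes. Over all genes tested, 15.4% were higher and 4.34% lower in that comparison, 19.7% in either direction. That share rested on few tumors: it was 5.42% without responder 15 and 32.6% without the 3 tumors of high mitochondrial share. The log2 fold changes of the members were split between 16 above and 16 below 0 (51.7% of all genes were above 0), with a median of 0.01 against 0.02 over all genes. This even split depended on which responder was used, with 24 of 32 above 0 and a median of 0.15 without responder 15, and 6 of 32 above 0 and a median of -0.31 without responder 16. The 95% interval of 23 of the 32 lay within ±1 on the log2 scale, that is, excluded a change of more than 2-fold, and the other 9 reached beyond it. The ranges separated upward, with the 2 responders above each of the 6 non-responders, for 3 members (Ifi27l2a, Irf9 and Trim30a) and downward for 0, against 21.5% and 13.2% of all genes.

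Against the IgG controls, which received no aPD-1, 3 members were higher in responders and 0 lower. These were Ifi27l2a, Irf9 and Trim30a, and the share over all genes was 17.7% higher and 5.17% lower, 22.9% together (7.30% without responder 15 and 41.6% without the 3 tumors of high mitochondrial share). A fold change above 0 was seen for 27 of the 32, against 48.4% of all genes, with a median of 0.20 on the log2 scale against -0.02 for all genes. Both values depended on which responder was used. Without responder 15, 30 of 32 were above 0 with a median of 0.37, and without responder 16, 10 of 32 with a median of -0.05. Because the members rise and fall together across tumors, their signs are not separate observations. Both responders lay above all IgG tumors for 5 members, adding Dhx58 and Phf11b to the 3 above, and below all of them for 0, against 19.3% and 9.67% of all genes. The responders are shared by both comparisons, which are therefore not separate evidence.

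The third comparison asked how treated tumors without the response label differ from controls. Between non-responders and IgG controls 0 members passed, as did 0% of all genes. Of the members 4 had an unadjusted p below 0.05 (Zbp1, Rtp4, Xaf1 and Herc6), against 3.80% of all genes, and DESeq2 called 0 members as well. The point estimates leaned one way, with 31 of 32 above 0 against 48.7% of all genes, and a median of 0.24 on the log2 scale. Leaving out each tumor in turn, the number above 0 was 29 to 32, the median ran from 0.16 without IgG tumor 2 to 0.32 without non-responder 10, and the members with an unadjusted p below 0.05 numbered from 0 (without non-responder 11 or 12) to 10 (without IgG tumor 1). Because the members rise and fall together across tumors, these 31 signs are not separate observations. The smallest adjusted p of any member was 0.99 in edgeR.

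**Figure D2:**
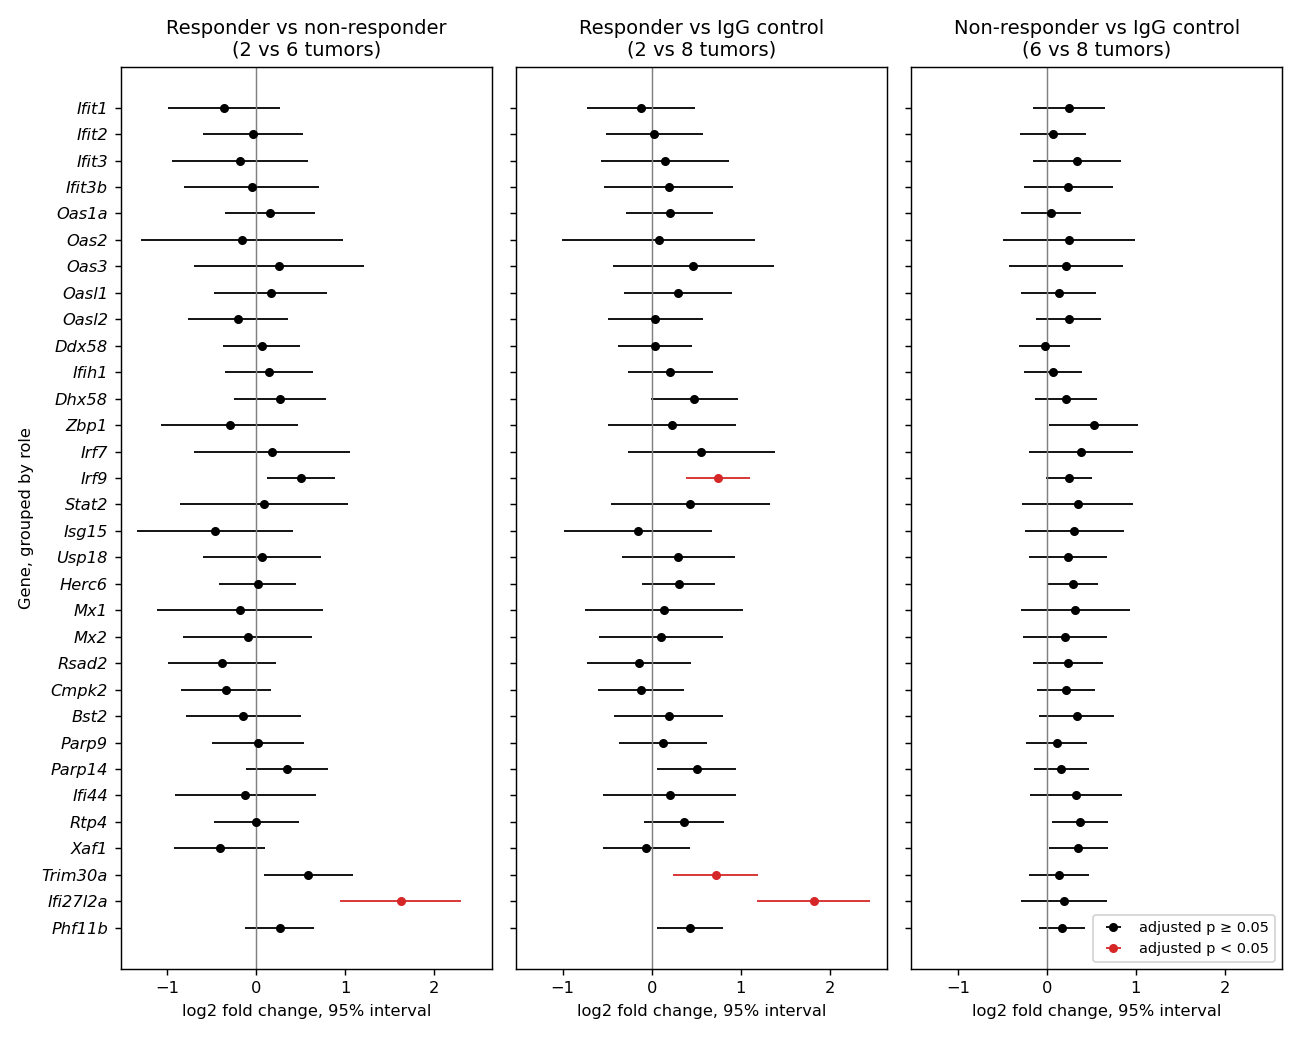
Log2 fold change (points) with its 95% interval (lines) for each of the 32 genes in the 3 comparisons, from edgeR's quasi-likelihood fit of 16 tumors; red marks an adjusted p below 0.05. Ifi27l2a alone is red against non-responders, Irf9, Trim30a and Ifi27l2a are red against IgG controls, and none is red between non-responders and IgG controls.

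Among the IFIT genes, a family of proteins that bind RNA marked as foreign and block its translation, 0 of 4 passed in any comparison. Ifit3 was 63.6 to 193.7 CPM in IgG tumors with a median of 135.3, 115.7 to 198.5 in non-responders with a median of 186.1, and 120.5 and 182.1 in the responders. Ifit1 was 69.8 to 180.2 in IgG tumors (median 120.9), 113.3 to 184.7 in non-responders (median 154.9), and 90.6 and 143.1 in the responders. For both genes responder 15 was the lower responder, and the 3 groups overlapped. Responders against non-responders gave a log2 fold change of -0.19 (SE 0.36, adjusted p = 0.79 in edgeR) for Ifit3 and -0.37 (SE 0.30, adjusted p = 0.46) for Ifit1.

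In the OAS family, which includes the synthetases whose product activates an RNA-cutting enzyme, 0 of 5 passed in any comparison. Oasl2, an OAS-like family member, had 133.4 to 288.3 CPM in IgG tumors (median 212.6), 189.3 to 280.4 in non-responders (median 239.3), and 174.3 and 248.9 in the responders. Responder 15 fell below all non-responders and responder 16 inside their range. The log2 fold change was -0.20 (SE 0.27, adjusted p = 0.67) against non-responders and 0.04 (SE 0.25, adjusted p = 0.93) against IgG tumors, by edgeR.

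The nucleic acid sensors were represented by the RIG-I-like receptors Ddx58, Ifih1 and Dhx58 and by Zbp1, a sensor of left-handed nucleic acid that can start cell death. None of the 4 passed. Ddx58, which had the smallest fold between its lowest and highest tumor, was 138.4 to 212.5 CPM in IgG tumors (median 193.8), 146.7 to 224.3 in non-responders (median 174.3), and 162.8 and 215.2 in the responders. The difference from non-responders was 0.06 on the log2 scale (SE 0.20, adjusted p = 0.89). Dhx58 ranged from 16.3 to 29.7 CPM in IgG tumors (median 24.1) and from 16.3 to 31.04 in non-responders (median 28.6), and was 29.9 and 34.9 in the responders. Both responders thus lay just above the IgG tumors but not above all non-responders. The change against IgG tumors was 0.48 on the log2 scale (SE 0.23, adjusted p = 0.16).

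Zbp1 had the largest point estimate between non-responders and IgG controls. It was 98.1 to 302.5 CPM in IgG tumors with a median of 119.7, 152.3 to 244.7 in non-responders with a median of 220.5, and 145.9 and 201.3 in the responders. All 6 non-responders lay above that IgG median, but IgG tumor 1 was the highest of all 16. The log2 fold change was 0.52 (SE 0.23), with an unadjusted p of 0.039 and an adjusted p of 0.99 in edgeR. Without IgG tumor 1 the value was 0.77 with an adjusted p of 0.10.

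Of the transcription factors, Irf9 passed in responders against IgG tumors but not against non-responders, and Stat2 passed in neither comparison. Irf9, the DNA-binding part of ISGF3, was 42.2 to 70.9 CPM in IgG tumors (median 54.8), 54.3 to 71.7 in non-responders (median 67.9), and 97.2 and 87.7 in the responders. Neither responder overlapped with any other tumor. Irf9 rose by 0.75 on the log2 scale against IgG tumors (SE 0.17, adjusted p = 0.0037), and without responder 15 it gave 0.60 (adjusted p = 0.16), which did not pass. The difference of Irf9 from non-responders was 0.50 on the log2 scale (SE 0.18, adjusted p = 0.060 in edgeR), which did not pass. It fell to 0.35 without responder 15. This comparison passed when IgG tumor 2 was left out (0.50, adjusted p = 0.049) or when only responders and non-responders were fitted (0.47, adjusted p = 0.034).

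Stat2, the partner of Irf9 in ISGF3, was 59.5 to 282.7 CPM in IgG tumors with a median of 98.3. Non-responders had 98.6 to 195.2 CPM (median 150.9), and the responders 142.7 and 173.1. The responders lay inside the range of both other groups, and the change against non-responders was 0.09 on the log2 scale (SE 0.45, adjusted p = 0.93). Irf7, which amplifies type I interferon production, gave 0.17 (SE 0.41, adjusted p = 0.83).

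Isg15 and its partners also showed no call. Isg15, which is attached to other proteins like ubiquitin, had 70.0 to 242.3 CPM in IgG tumors (median 102.2), 91.4 to 220.4 in non-responders (median 138.2), and 81.1 and 131.6 in the responders. Responder 15 lay below all 6 non-responders. At -0.46 on the log2 scale, its difference from non-responders was the lowest of the 32 members, with an SE of 0.41 and an adjusted p of 0.50. Usp18, which removes Isg15 from proteins and dampens receptor signaling, gave 0.06 (SE 0.31) and Herc6, an Isg15 ligase in the mouse, 0.02 (SE 0.20).

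All 5 antiviral effectors had point estimates below 0 against non-responders and none passed. Bst2 was 194.7 to 498.3 CPM in IgG tumors (median 269.6), 261.5 to 468.5 in non-responders (median 357.1), and 293.1 and 368.2 in the responders. Against non-responders Bst2 gave a log2 fold change of -0.15 (SE 0.30, adjusted p = 0.80). Bst2 is also a marker of plasmacytoid dendritic cells in the mouse. Siglech, a defining marker of these cells, was 8.22 CPM in responder 15, 5.65 in responder 16 and at most 0.74 in any other tumor. The summed level of 5 such markers was 26.9 CPM in responder 15, 24.2 in responder 16, 11.6 to 19.3 in non-responders and 8.36 to 21.1 in IgG tumors. Of the 5, Cox6a2 was lower and 3 were higher in responders than in non-responders. The part of these cells in the level of Bst2 was not tested.

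Cmpk2, a mitochondrial nucleotide kinase next to Rsad2, had 36.7 to 70.5 CPM in IgG tumors (median 55.1), 48.9 to 79.6 in non-responders (median 65.5), and 49.2 and 53.4 in the responders. Both responders sat near the lower end of the non-responders, with a log2 fold change of -0.34 (SE 0.24, adjusted p = 0.38). Rsad2, whose product viperin makes a chain-terminating nucleotide, gave -0.38 (SE 0.29, adjusted p = 0.41). The dynamin-like GTPases Mx1 and Mx2 gave -0.18 (SE 0.44) and -0.10 (SE 0.34).

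Parp14 and Parp9, members of the ADP-ribosyltransferase family, did not pass. Parp14 was 132.1 to 221.7 CPM in IgG tumors (median 172.4), 145.1 to 252.1 in non-responders (median 180.6), and 214.8 and 264.4 in the responders. Responder 16 was the highest of the 16 tumors while responder 15 overlapped with both groups. The log2 fold change was 0.34 (SE 0.22, adjusted p = 0.32) against non-responders and 0.50 (SE 0.21, adjusted p = 0.096) against IgG tumors.

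Ifi27l2a, a small interferon-induced membrane protein gene, was the member with the largest difference and also the one that rested most on 1 tumor. It was 27.4 to 51.0 CPM in IgG tumors (median 37.0), 24.3 to 57.6 in non-responders (median 48.4), and 207.9 in responder 15 and 65.6 in responder 16. Both responders exceeded every other tumor, responder 16 by a narrow margin. The gene rose by 1.62 on the log2 scale against non-responders (SE 0.32, adjusted p = 0.0015) and by 1.82 against IgG tumors (SE 0.30, adjusted p = 0.00025). Without responder 15 the values were 0.49 (adjusted p = 0.54) and 0.69 (adjusted p = 0.28), and neither passed.

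Responder 15 also differed from responder 16 in its cell markers. Its summed B cell markers were 1245 CPM against 310.4, its markers of high endothelial venules, the vessels through which lymphocytes enter tissue, 344.0 against 95.7, and its fat cell markers 436.0 against 76.9. NK cell markers went the other way, at 12.3 CPM in responder 15 against 20.5, as did neutrophil markers, at 14.9 against 30.7. The T cell sums were 298.0 against 270.2, and those of macrophages and monocytes 2427 against 2545. The part of these cells in the level of Ifi27l2a was not tested.

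**Figure D3:**
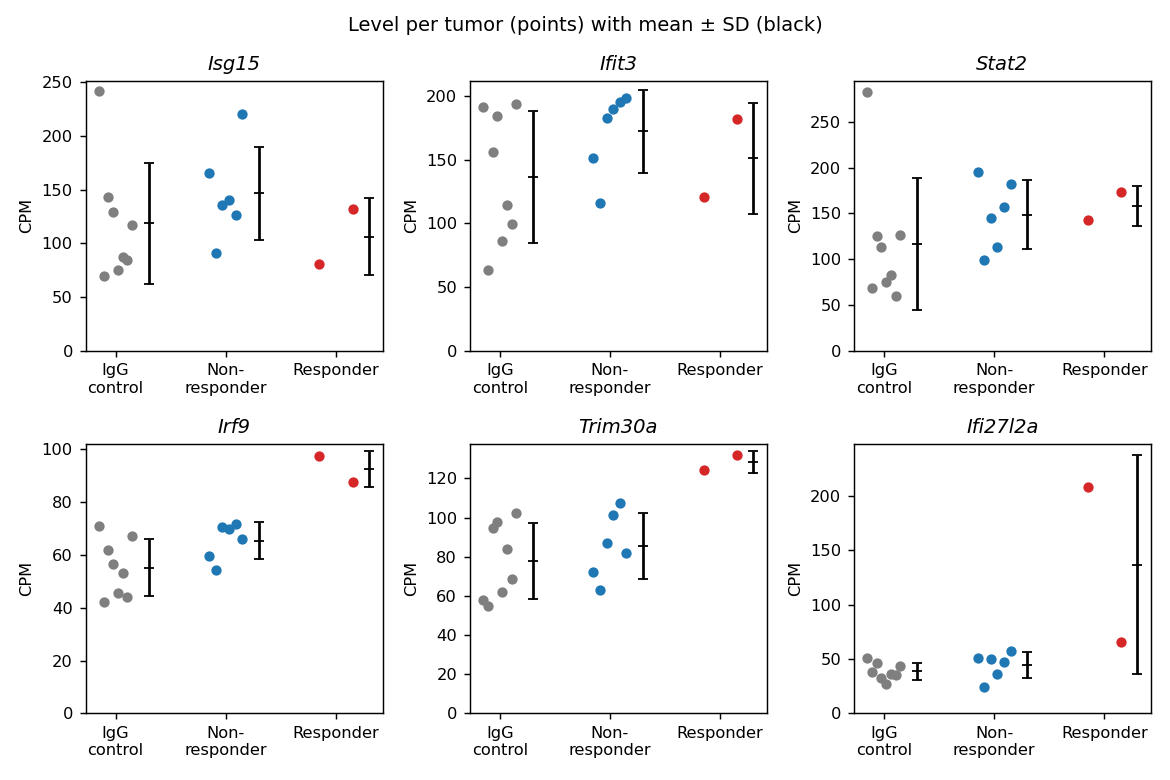
CPM of 6 genes in each tumor (points; IgG control n = 8, non-responder n = 6, responder n = 2) with the group mean and SD in black; each axis starts at 0. The responders lie within the range of the IgG tumors for Isg15, Ifit3 and Stat2 and above all other tumors for Irf9, Trim30a and Ifi27l2a, where responder 15 reaches 207.9 and responder 16 65.6 CPM.

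Trim30a, a mouse TRIM protein known to restrain innate signaling, was 55.1 to 102.5 CPM in IgG tumors with a median of 76.4. It was 63.0 to 107.3 in non-responders (median 84.5), and 124.2 and 132.1 in the responders. The responders were close to each other and above all other tumors. The gene rose by 0.72 on the log2 scale against IgG tumors (SE 0.22, adjusted p = 0.028), and its difference from non-responders was 0.58 (SE 0.24, adjusted p = 0.097). The call against IgG tumors was lost without responder 15 (0.69, adjusted p = 0.22) or responder 16 (0.62, adjusted p = 0.18). Its reads are partly divided with other genes.

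Xaf1, a pro-apoptotic interferon target, and Rtp4, a chaperone of membrane receptors, had a small p between non-responders and IgG controls before adjustment. Xaf1 was 61.1 to 139.1 CPM in IgG tumors (median 78.4), 88.2 to 125.5 in non-responders (median 109.6), and 70.7 and 92.2 in the responders. Rtp4 was 41.8 to 76.5 in IgG tumors (median 64.9), 60.8 to 94.3 in non-responders (median 86.4), and 73.8 and 86.8 in the responders. The log2 fold changes between non-responders and IgG tumors were 0.35 (SE 0.16, unadjusted p = 0.039) for Xaf1 and 0.37 (SE 0.15, unadjusted p = 0.023) for Rtp4, both with an adjusted p of 0.99 in edgeR. The groups overlapped for both genes.

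The remaining genes of the pathway were read from separate lists, and their counts stand beside the 15.4% of all genes that were higher against non-responders and the 17.7% that were higher against IgG tumors. Of 6 interferon receptor genes, 1 rose against non-responders, Ifngr1 of the interferon gamma receptor, by 0.34 on the log2 scale (SE 0.11, adjusted p = 0.044). It also rose against IgG tumors (0.37, SE 0.11, adjusted p = 0.022). Ifnar1 and Ifnar2, the receptor of type I interferons, gave 0.28 (SE 0.10, adjusted p = 0.069) and 0.23 (SE 0.11, adjusted p = 0.16) against non-responders. Of 7 kinases and transcription factors, 3 rose against non-responders (Jak1, Jak2 and Irf8) and 5 against IgG tumors, adding Tyk2 and Irf5. Irf8, a factor of myeloid and B cells, changed most, by 1.37 (SE 0.24, adjusted p = 0.00055) against non-responders.

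Of 11 genes for sensing and its adaptors, Tlr7 and Ikbke rose against both groups. Tlr7, a receptor for single-stranded RNA, rose by 1.56 on the log2 scale against non-responders (SE 0.27) and by 1.32 against IgG tumors (SE 0.26). Tmem173, the gene of STING, rose against IgG tumors (0.73, SE 0.20, adjusted p = 0.013) and gave 0.58 (SE 0.21, adjusted p = 0.065) against non-responders. Cgas, whose enzyme makes the signal for STING, was lower against IgG tumors, at -0.44 (SE 0.13, adjusted p = 0.021). Of 6 inhibitors, 0 passed against non-responders and 2 rose against IgG tumors, Socs3 (0.61, adjusted p = 0.035) and Nlrc5 (0.93, adjusted p = 0.010). Between non-responders and IgG tumors 0 of these genes passed. Against non-responders, 1 of 6 receptors and 2 of 11 sensing genes are near the share over all genes. The median log2 fold change of the kinases and factors against non-responders was 0.54. It was 0.12 without responder 15 and 0.58 without responder 16. In the same order, the receptors had medians of 0.30, 0.15 and 0.30, and the sensing genes 0.26, 0.25 and 0.19. Against IgG tumors the kinases and factors had 0.69, 0.37 and 0.79, and the receptors 0.31, 0.16 and 0.31. The sensing genes had 0.30, 0.25 and 0.20 there, and the inhibitors 0.52, 0.45 and 0.39.

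A second list of 32 further stimulated genes, none of them a member, was examined beside the first. Of its 31 tested genes, 8 rose against non-responders, namely Ifi209, Ifi203, Sp100, Slfn5, Samd9l, Helz2, Ifit1bl1 and Ms4a4c. Against IgG tumors the same 8 rose together with Slfn8 and Trafd1, 10 of 31. Over all genes 15.4% and 17.7% were higher in these comparisons. The median log2 fold change of the list against non-responders was 0.24, and it was 0.26 without responder 15 and 0.18 without responder 16. Against IgG tumors the median was 0.49, and it was 0.39 without responder 15 and 0.30 without responder 16. Ifi209 and Ifi203, sensors of the HIN-200 family, gave 1.92 (SE 0.22) and 1.41 (SE 0.20) on the log2 scale against non-responders, and Sp100, a nuclear body protein, gave 1.50 (SE 0.16). The ISRE core was found for 15 of the 28 genes of this list with a matched promoter, 53.6%. The difference between this list and the members was not tested.

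Targets of interferon gamma gave another picture against IgG tumors. Ifng itself was 0.36 to 1.97 CPM in IgG tumors (median 0.63), 0.73 to 3.37 in non-responders (median 1.93), and 2.01 and 7.40 in the responders. It rose by 2.44 on the log2 scale against IgG tumors (SE 0.55, adjusted p = 0.0033 in edgeR), and its difference from non-responders was 1.23 (SE 0.60, adjusted p = 0.17). Both values depended on which responder was used. Without responder 16 they were 1.15 and -0.05, and without responder 15 they were 3.01 and 1.81. Of 17 interferon gamma targets, 11 rose in responders against IgG tumors and 2 against non-responders, Ciita and Serpina3g, where 17.7% and 15.4% of all genes were higher. The 2 of 17 is thus not above the share over all genes. The medians of the 17 were 0.95 against IgG tumors and 0.19 against non-responders on the log2 scale, where the 32 members had 0.20 and 0.01. These medians of the 17 also depended on the responder used. Without responder 15 they were 1.15 and 0.38, and without responder 16 they were 0.57 and -0.19.

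Between non-responders and IgG tumors, 0 of the 17 targets passed adjustment, as did 0% of all genes. An unadjusted p below 0.05 in edgeR was seen for 17 of 17, against 4 of 32 members and 3.80% of all genes. These 17 targets were measured in the same tumors and are not separate observations. Their median log2 fold change there was 0.68. The GAS motif was found for 5 of the 12 target genes with a matched promoter (41.7%) and the ISRE core for 8 of the 12 (66.7%). The 4 tumors lowest in mean log2 CPM of the targets were IgG tumors 7, 6, 2 and 4, and IgG tumors 7, 2 and 6 were also among the 5 lowest for the members. No difference between the lists was tested, and the lists were chosen with earlier results of these data known.

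**Figure D4:**
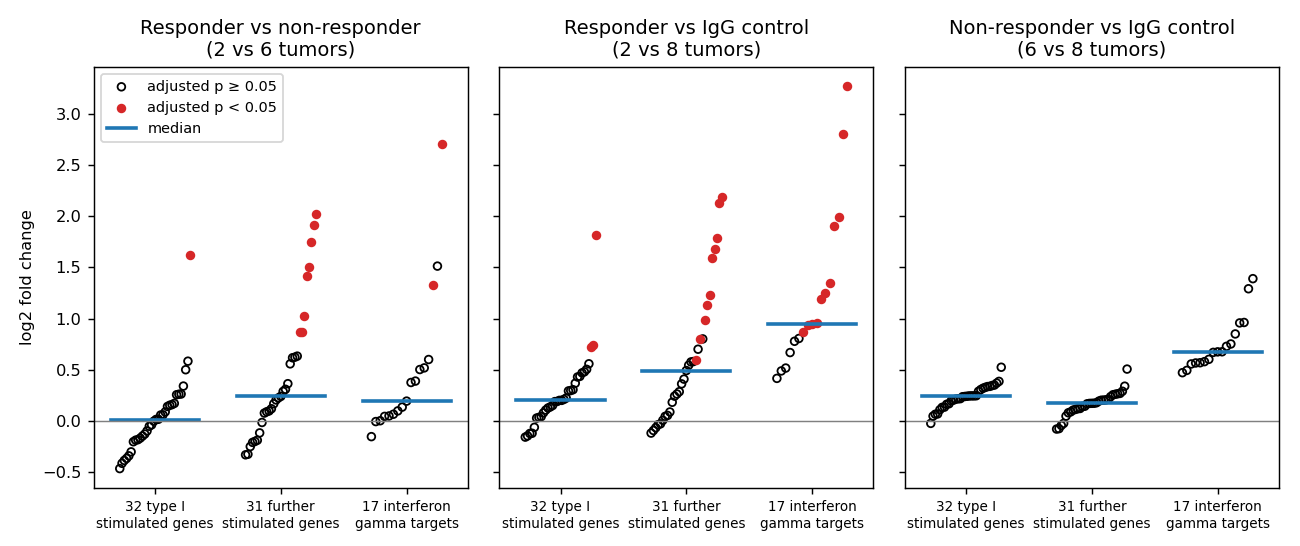
Log2 fold change of each gene (points, sorted within a list) for the 32 members, 31 further stimulated genes and 17 interferon gamma targets in the 3 comparisons; filled red points have an adjusted p below 0.05 and blue lines are list medians. The members sit around 0.01 against non-responders with Ifi27l2a apart, while 11 of 17 interferon gamma targets are red against IgG controls.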

How the data were processed

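Expected counts for 16 tumors were deposited by the authors in 1 table, made with STAR 2.6 on GRCm38 and RSEM 1.3.0. Counts were rounded, since 7.84% were not whole, and 92 entries naming no gene (at most 185 counts in a tumor) were left out. Symbols, positions and exon lengths came from GENCODE M21 (GRCm38). Each tumor is from a different mouse. One fit of 16 tumors in 3 groups used edgeR 4.0.16 (R 4.3.3) with TMM scaling, its filter on low counts, robust dispersions and the quasi-likelihood test, with Benjamini-Hochberg adjustment over 18251 genes, and steps were tested on simulated counts. CPM used TMM-scaled library sizes, log2 CPM a prior count of 2. Of 120 tumor pairs none was a copy (lowest chi-square per degree of freedom 16.5). Intervals are 95% confidence intervals of the log2 fold change between groups. The spread between tumors that sets their width was estimated over the 3 groups together. DESeq2 1.42.0, other scalings and filters, and leaving out tumors served as alternatives. The members and lists were chosen with earlier results of these data known. Genes named are, per role, the member of highest mean CPM and of smallest p between responders and non-responders, and members passing in a comparison or, where none passed, the 3 of smallest p. Genes of other lists are named where they passed or define the pathway, and further members were named after their values were seen. Python 3.11.15 was used for promoters and figures. One gene of the pathway lists is not reported here.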

Additional observations from a re-analysis of the deposited data

Results flagged for a closer look

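In 6 of 64 sets of 1 member in 1 group (IgG or non-responder tumors), the lowest or highest tumor stood far apart by Dixon's criterion. It was taken on CPM, a scale on which high values stand further apart than on log2 CPM. Chance alone meets it in about 1 in 20 sets only for normally distributed values, so that rate need not hold here. Flags on the log2 scale were not computed. IgG tumor 1 was the high one in 4 of the 6 flagged sets. It had 303 CPM for Zbp1 (next IgG tumor 183.1), 283 for Stat2 (next 126.8), 242 for Isg15 (next 143.5) and 139 for Xaf1 (next 93.1). This tumor also had the highest mitochondrial share, 7.60%, and the lowest total count, 26603449. Non-responder 10 was the low one for Dhx58, at 16.3 CPM (next 27.2), and for Zbp1, at 152 CPM (next 210.2). The cause was not tested for any of these.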

How the results depend on the processing

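No paired analysis was possible because the 3 groups share no replicate numbers, so no replicate block could be fitted. With 2 responders, each result on them rests on few tumors; where 1 was left out, the other was assumed to vary like the other groups. Leaving out each tumor in turn, the members higher in responders than in non-responders numbered 0 to 2 (0 without responder 15, 2 without IgG tumor 2) and those lower 0 to 1 (Xaf1, -0.48, adjusted p = 0.044, without IgG tumor 1), and the median log2 fold change ran from -0.31 without responder 16 to 0.15 without responder 15. Against IgG tumors the number higher was 0 to 3 and the median -0.05 to 0.37. With only responders and non-responders fitted, 2 members were higher, Irf9 joining Ifi27l2a. Trim30a against IgG tumors gave 0.65 (adjusted p = 0.050) with no filter on low counts. Leaving out the 3 tumors of high mitochondrial share, an alternative chosen after seeing the data, gave 1 member higher against non-responders, 3 against IgG tumors and 0 between non-responders and IgG tumors. The last count was 0 under every alternative run. The medians of the other gene lists without 1 responder were also added after seeing the data. Sign changes under these alternatives, on the log2 scale, are listed only for the members named by the stated rule. All were differences that did not pass in the fit of all tumors. Sign changes of the other members are not listed. With no filter on low counts, Ddx58 gave -0.022 against non-responders and -0.038 against IgG tumors in responders, and Oasl2 -0.031 against IgG tumors. With a filter of at least 10 counts in at least 8 tumors, Rtp4 gave 0.018 against non-responders. Without the 3 tumors of high mitochondrial share, Ddx58 gave -0.13, -0.069 and 0.057 in the 3 comparisons as ordered in the report, and Isg15 and Xaf1 0.022 each for responders against IgG tumors. Leaving out each tumor in turn, the range for responders against non-responders was -0.57 to 0.011 for Ifit3, -0.21 to 0.18 for Ddx58, -0.11 to 0.18 for Stat2 and -0.18 to 0.05 for Rtp4. For responders against IgG tumors it was -0.23 to 0.35 for Ifit3, -0.54 to 0.10 for Ifit1, -0.29 to 0.20 for Oasl2, -0.23 to 0.15 for Ddx58, -0.61 to 0.076 for Isg15, -0.040 to 0.29 for Bst2, -0.32 to 0.042 for Xaf1 and -0.083 to 0.40 for Zbp1. For non-responders against IgG tumors it was -0.093 to 0.031 for Ddx58. The cause was not tested.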
